A study of Mus musculus with 2 samples.

Results

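A single HA-Dido3 peak, 1 of the 2888 peaks listed for the whole genome, lay in the window around the miR-290 to miR-295 microRNA cluster of mouse embryonic stem cells. The members were taken as every listed peak that overlapped chromosome 7 from 3205000 to 3235000 in the mouse genome build mm9. The window was set around the whole cluster, of which 5 microRNA genes are described here: Mir291a, Mir291b, Mir293, Mir294 and Mir295. Mir290a, Mir290b, Mir292 and Mir292b are annotated beside them and were not among the 5. It was chosen because the peak list was known to hold a strong peak there, so the score, tags, fold and length of this peak describe it and carry no test. Binding was measured by chromatin immunoprecipitation and sequencing (ChIP-seq) with 1 library precipitated by a polyclonal anti-HA antibody and 1 input library made without antibody. Both came from C57BL/6 embryonic stem cells with the genotype Dido3deltaCT+HADido3, that is, with the Dido3deltaCT allele and with Dido3 given back carrying an HA peptide tag. The cells were kept in self-renewal with leukemia inhibitory factor. No replicate stands behind any value. The samples used here hold no anti-HA ChIP of untagged cells, so binding of the tagged protein and non-specific precipitation cannot be told apart.

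Dido3 is the largest protein made from the Dido1 gene and carries a PHD finger, a domain that reads methylated lysine on histone H3. The miR-290 to miR-295 microRNAs are cut from a shared primary transcript and are among the most abundant microRNAs of mouse embryonic stem cells. They are known for promoting rapid passage through the cell cycle and for being switched off as the cells differentiate. A microRNA pairs with its target messenger RNAs mainly through its seed, which is taken here as bases 2 to 8 from the 5′ end, and microRNAs with the same seed have overlapping targets.

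The mature 3′-arm microRNAs of the 5 genes are shown because the seed is the part that sorts them into groups. The sequences are from RefSeq (GRCm38.p6), where all 5 genes lie on the plus strand of chromosome 7, and the seed is in capitals.
mmu-miR-291a-3p: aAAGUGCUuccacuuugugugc
mmu-miR-294-3p: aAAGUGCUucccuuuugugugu
mmu-miR-295-3p: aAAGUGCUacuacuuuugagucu
mmu-miR-291b-3p: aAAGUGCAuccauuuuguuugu
mmu-miR-293-3p: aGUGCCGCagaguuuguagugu
The first 3 of these had the identical seed AAGUGCU. The seed of miR-291b-3p was AAGUGCA, identical to theirs over bases 2 to 7. miR-293-3p had GUGCCGC, a seed found in no other of the 1679 mature mouse microRNAs of the RefSeq table.

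The RefSeq table was not checked for completeness, so every seed count here covers only the microRNAs it lists. The seed AAGUGCU was carried by 5 mature microRNAs in the table, which is 0.298% of them. Besides the 3 of the cluster, these were miR-302b-3p and miR-302d-3p, which belong to the miR-302 cluster of early embryonic cells on another chromosome. They are shown because they carry the seed AAGUGCU outside the cluster. Their bases after the seed were not compared with those of the cluster.
mmu-miR-302b-3p: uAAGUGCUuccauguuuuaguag
mmu-miR-302d-3p: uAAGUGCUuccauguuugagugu
The seed AAGUGCA was shared by miR-291b-3p and 1 other, miR-350-5p. Aligned base by base from the 5′ end, miR-294-3p matched miR-291a-3p at 19 of 22 bases and matched miR-291b-3p at 19 of 22 as well. miR-295-3p matched miR-291a-3p at 15 of 22 bases, and miR-291b-3p and miR-294-3p at 12 of 22 each. After the seed, it matched these 3 at 7, 5 and 4 of 14 bases. miR-293-3p matched the other 4 at between 6 and 9 of 22 bases. Of the 3′ arms, miR-291a, miR-291b and miR-294 were thus the most alike, at 18 or more of 22 bases in each pair, miR-295 matched them less, and miR-293 least.

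The 5′ arms, cut from the other side of each hairpin, split differently. In miR-291a-5p and miR-291b-5p the seed was AUCAAAG, which no other mature microRNA of the table had. For miR-293-5p it was CUCAAAC, shared with miR-290a-5p and miR-292a-5p. miR-294-5p had CUCAAAA, shared with miR-292b-5p, and miR-295-5p had CUCAAAU, found in no other of the table. Over bases 2 to 7 the seeds of miR-293-5p, miR-294-5p and miR-295-5p were identical, and 6 mature microRNAs of the table had these bases. The genes of miR-290a, miR-292a and miR-292b are listed in the same run of genes as the 5. All 10 mature sequences of the 5 genes had 7 distinct seeds between them, 3 on the 3′ arms and 4 on the 5′ arms.

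Hairpins of 4 of the 5 genes are given to show where the 3′-arm microRNA, in capitals, sits in the precursor. All are RefSeq sequences of GRCm38.p6.
Mir291b: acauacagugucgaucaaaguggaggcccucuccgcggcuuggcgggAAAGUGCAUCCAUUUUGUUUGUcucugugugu
Mir293: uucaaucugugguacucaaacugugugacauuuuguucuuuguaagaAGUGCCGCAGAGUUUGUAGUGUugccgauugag
Mir294: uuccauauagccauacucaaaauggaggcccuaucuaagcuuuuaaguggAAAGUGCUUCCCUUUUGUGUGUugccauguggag
Mir295: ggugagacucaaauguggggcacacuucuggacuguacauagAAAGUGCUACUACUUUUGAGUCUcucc
The hairpins were 79, 80, 84 and 69 bases long in this order, and the 3′ arm began at base 48, 48, 51 and 43. In GRCm38.p6, Mir291b and Mir293 are separated by 782 bp, Mir293 and Mir294 by 218 bp, and Mir294 and Mir295 by 48 bp, so that these 4 hairpins together span 1360 bp. The map of these 4 hairpins shows a tight group of 3 set apart from Mir291b. Mir291a, Mir292 and Mir292b, which come just before Mir291b in the same annotation, are not drawn. In the order of annotated start coordinates, Nlrp12 (a cytoplasmic innate immune receptor) and the long non-coding RNA D7Ertd143e are listed between Mir290b and Mir291a. The order gives neither strand nor gene end, so it does not place the transcription start or the extent of these genes. After Mir295 the next protein-coding gene listed in this order is Myadm, though a gene listed earlier may extend past Mir295.

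**Figure D1:**
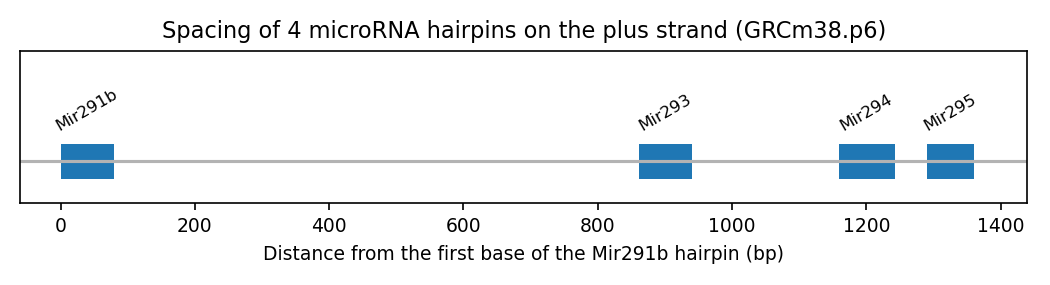
Spacing of the 4 hairpins for which a RefSeq sequence is shown, in bp from the first base of the Mir291b hairpin on the plus strand of GRCm38.p6 (x axis, each bar drawn to scale as 1 hairpin). Mir293, Mir294 and Mir295 sit close together, and 782 bp separate Mir291b from Mir293.

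The peaks are in mm9 and the hairpins in GRCm38.p6, and coordinates were not converted between builds. The place of the peak over, between or beyond single hairpins was therefore not determined here, nor was the peak assigned to Nlrp12 or D7Ertd143e. What can be said of position comes from the window alone. The peak ran from 3220164 to 3222674 on chromosome 7 of mm9 and was 2511 bp long. It began 15.2 kb inside the lower edge of the 30.001 kb window and ended 12.3 kb before the upper edge. It covered 8.37% of the window, and no other peak was listed in the stretches on either side. The sequence of the peak was not used here.

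The peak held 318 ChIP tags (exact Poisson 95% interval 284 to 355, counting error only), as deposited by the authors and not scaled. That is 127 tags per kb of peak (interval 113 to 141). Its summit, the point of highest tag density, lay 1191 bp from the start, and 1320 bp of peak followed. The summit thus fell at 47.4% of the length, close to the middle, where the median over all peaks was 49.7% with quartiles of 36.3% and 62.6%. The peak was several times longer than the sonicated fragments, which the labels put at about 200 to 500 bp.

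The authors' score for this peak was 2945.17, on a scale of minus 10 times the log10 of the p-value that MACS gave. The authors' fold enrichment, which sets the ChIP signal at the summit over an expected background, was 76.32. The authors' false discovery rate was 25%. That rate looks high for so strong a peak because it is a ratio of very small counts: at rank 4 by score it amounts to 1 peak called with ChIP and input exchanged against 4 listed peaks. The rate of 25% therefore rests on 1 exchanged peak somewhere in the genome.

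The fold had a regular step. Over the list, 2099 of 2888 folds (72.7%) were whole multiples of 1.9569 within 0.01, where smoothly spread values would give 1.02%. The fold of the microRNA window peak was 39 such steps. As its divisor MACS 1.4 takes whichever is higher, the genome-wide or the local background, so a whole multiple is what a peak at the genome-wide background would have. By this measure the local input at the peak did not raise the expected background above the genome-wide value. The deposited table gives no input tags by which to check this directly.

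Against the whole list the peak was in the top ranks by every measure. By score it ranked 4 of 2888, at 39.1 times the list's median of 75.33. It also ranked 4 by fold, at 5.57 times the median of 13.7, and 4 by tags per kb, at 3.26 times the median of 38.83. By tags it ranked 11, at 21.2 times the median of 15, and by length 33, at 6.41 times the median of 391.5 bp. Its tags were 0.377% of the 84288 tags in all listed peaks (exact Clopper-Pearson 95% interval 0.337% to 0.421%, counting error only). Its length was 0.151% of the listed length, and these shares were not tested against each other. The peak passed a score of at least 100, as did 35.9% of all peaks, and a fold of at least 20, as did 14.5%. The window was chosen on these values, so the passing of either threshold is no result about the microRNA genes.

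**Figure D2:**
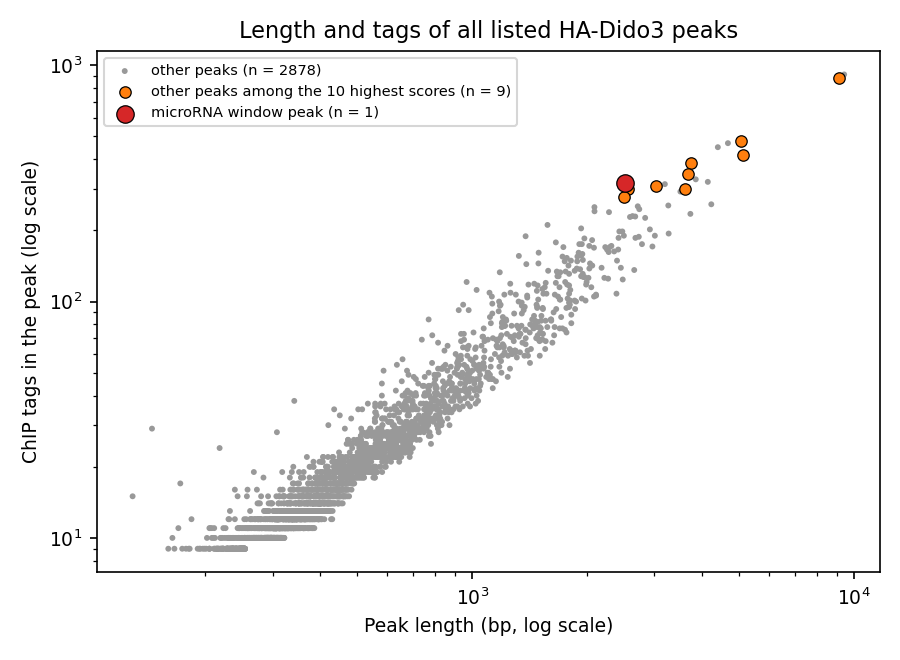
Each point is 1 listed peak, with its length in bp (x axis, log scale) and its ChIP tags (y axis, log scale). The peak of the microRNA window (red, 2511 bp and 318 tags) lies at the upper edge of the cloud for its length, and the other 9 peaks with the 10 highest scores (orange) are mostly longer.

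Among the 10 peaks with the highest scores the window peak had the highest tag density, and the range over the 10 was 81.8 to 127 tags per kb. The peak of rank 11, just outside the 10, was denser and shorter, at 134 tags per kb and 1575 bp. The window peak was the second shortest of the 10, with lengths from 2493 to 9148 bp. Its fold was the second highest of the 10, after the 84.14 of the peak of rank 3 on chromosome 13 (98256245 to 98265392), which was 9148 bp long with 882 tags. The peak next below in score, on chromosome 2 (75506513 to 75509070), had a score of 2664.68, 299 tags, a length of 2558 bp and a fold of 64.58. Both peaks were of nearly the same length, and the counting interval of the window peak's tags includes the 299 tags of the other. The difference in tags was not tested.

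Peaks of like length gave a comparison in which length was held fixed. Besides the window peak, 25 peaks were within 10% of its length, from 2270 to 2739 bp. They held 108 to 299 tags with a median of 186, which is below the 318 of the window peak by a factor of 1.71. Their folds were between 3.7 and 74.36 with a median of 32.92, lower by a factor of 2.32. The window peak was first of these 26 in tags, in fold and in score. The second in fold, at 74.36, lay on chromosome 9 (78323543 to 78326035) with 277 tags. Whether its tags differ from those of the window peak beyond counting error was not tested. The background was at the genome-wide value, by the step of the fold, in 15 of the 25, beside 72.7% of all listed peaks.

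**Figure D3:**
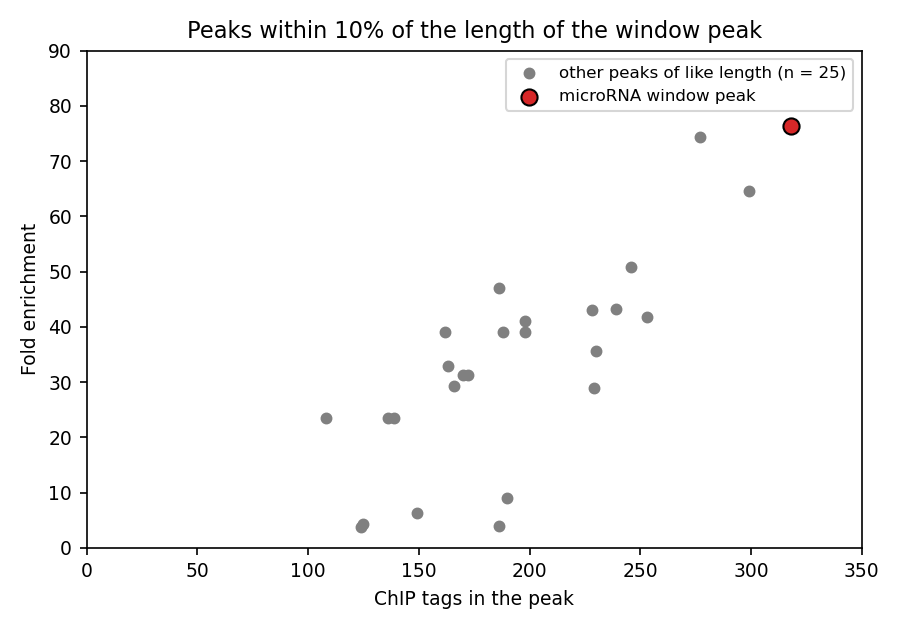
ChIP tags (x axis) and the authors' fold enrichment (y axis) of the 26 peaks within 10% of the length of the microRNA window peak, each point 1 peak. The window peak (red) lies at the upper right with 318 tags and a fold of 76.32, and 2 other peaks come near it with 299 and 277 tags.

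Peaks with a like number of tags covered a wide range of folds. The 8 others taken for lying within 10% of its tag number held 292 to 346 tags, and all 8 were longer than the window peak, from 2558 to 4141 bp. Their folds ran from 4.51 to 64.58. At the low end, the peak on chromosome 8 (19787926 to 19792066) had 321 tags and a score of only 59.64. Nearly equal tag numbers, 318 and 321, thus stood beside folds of 76.32 and 4.51. Of the 8, 2 had a fold at the genome-wide background, as the window peak and 72.7% of all listed peaks did.

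On chromosome 7, which carried 279 peaks, the window peak was first by score and second by tags, length, fold and tags per kb. The peak with more tags and greater length lay at 50445346 to 50449024, with 346 tags over 3679 bp and a fold of 26.64. A peak at 3659132 to 3660511 was higher in fold and density, at 80.23 and 137 tags per kb, with 189 tags over 1380 bp. This second one starts 436 kb beyond the end of the window peak. The peak at 3659132 and the window peak are among only 5 peaks in the whole list with a fold of at least 70, a bound set after the values were seen. The other 3 were on chromosomes 10, 13 and 9, with folds of 88.06, 84.14 and 74.36.

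The window peak was the first of chromosome 7, with no listed peak at lower coordinates, so its distance to the nearest peak was measured on the upper side only. How much of the sequence before the window peak could be mapped was not determined. The next peak lay 77.6 kb beyond its end, at 3300320 to 3300934, with 28 tags at a fold of 15.65 and a score of 158.18. That neighbour had fewer tags by a factor of 11.4 and a lower fold by a factor of 4.88. A gap of this size is usual in the list, since the median gap between successive peaks was 76.1 kb and 49.7% of gaps were longer. Within 500 kb beyond the peak there were 7 peaks with 288 tags together, fewer than the 318 in the window peak alone, and 189 of those 288 came from the peak at 3659132. Each of the 7 had a fold at the genome-wide background by the step, as did 72.7% of all listed peaks. A score of at least 100 was reached by 4 of the 7, and by 35.9% of all listed peaks.

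**Figure D4:**
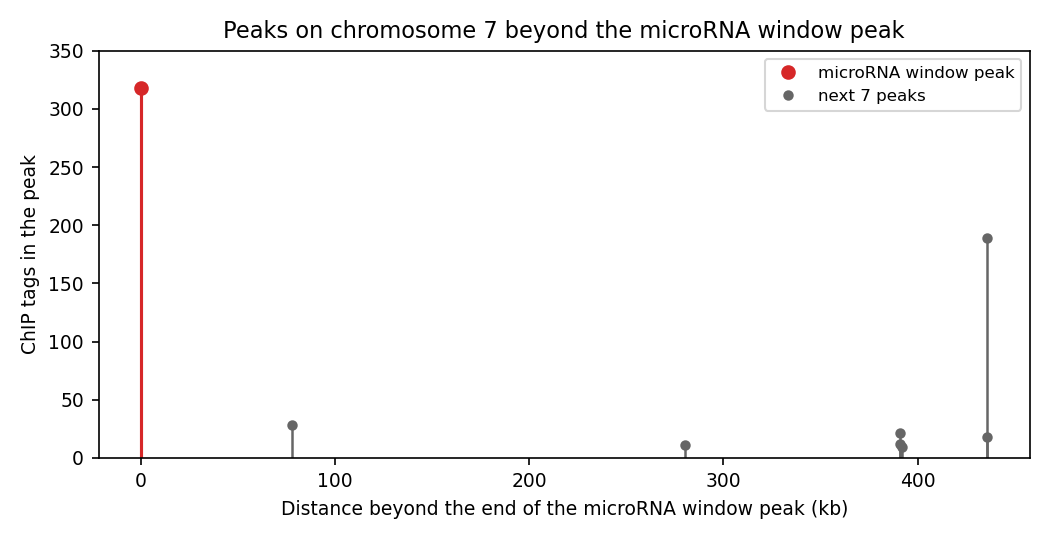
ChIP tags (y axis) of the peak of the microRNA window, drawn at 0, and of the next 7 peaks on chromosome 7 by distance beyond its end in kb (x axis); each line is 1 peak. The nearest of them has 28 tags at 77.6 kb, and the tallest has 189 tags at 436 kb.

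The window peak had no other listed peak within 10 kb. Of the 10 peaks with the highest scores, 3 had no other peak within 10 kb, and their nearest neighbours were 397, 77.6 and 48.8 kb away. The median distance to the nearest peak over the 10 was 0.318 kb. Of the 62 peaks with a score of at least 1000, 24 (38.7%) stood alone at 10 kb, a share near the 42.0% of all peaks. A nearest neighbour at least as far as that of the window peak was found for 12 of the 62, counting the window peak itself. Among the 1213 peaks of the list that stood alone, the window peak was first in score and fold and ranked 3 in tags. These lone peaks had a median of 13 tags, a median length of 347 bp and a median score of 66.05. Over the whole list, which includes the lone peaks, the medians were 15 tags, 391.5 bp and 75.33. Short and shallow peaks were thus usual among the lone peaks and in the list as a whole. Peaks with a neighbour were not summarised apart.

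**Figure D5:**
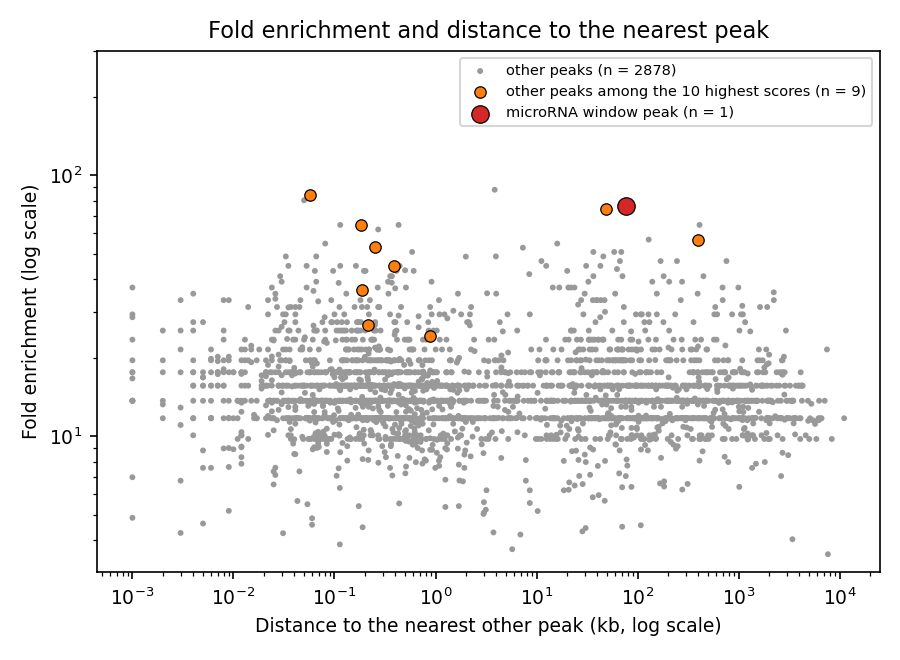
Distance to the nearest other listed peak in kb (x axis, log scale) and the authors' fold enrichment (y axis, log scale), with each point 1 peak. The microRNA window peak (red) is at 77.6 kb with a fold of 76.32, above every other peak that stands alone at 10 kb, and most of the other high-scoring peaks (orange) have a neighbour within 1 kb.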

How the data were processed

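The data were 1 anti-HA ChIP library and 1 input library of mouse embryonic stem cells, given as 1 table of peaks. The submitters' processing notes name Bowtie, SAMtools and MACS version 1.4, with mm9 as build. For calling options and sequencing depth, the sources used here say nothing. Per the file headers, tags are whole-number counts of ChIP tags per peak as deposited. The authors' score is minus 10 times the log10 of the MACS p-value, the authors' fold is a ratio of ChIP to expected background, and the authors' false discovery rate is a percent. All 2888 peaks were ranked and joined to the window by any overlap, with positions counted from 1. Seeds and hairpins came from RefSeq (GRCm38.p6) and were matched by symbol: 5 of 5 genes had mature sequences. Named items followed a rule: the 5 genes, their annotated neighbours, all window peaks, the 10 highest scores, peaks within 10% of the length of the window peak, and microRNAs sharing a seed with a member. Peaks of like tag number and those of fold at least 70 were added after the values were seen. The members and lists were chosen with earlier results of these data known. Ranks, gaps and the fold step were tested on simulated data. Scripts ran in Python 3.11.15 (pandas 2.3.3, numpy 2.4.6, scipy 1.17.1), with plots from matplotlib 3.10.9.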

Additional observations from a re-analysis of the deposited data

How the results depend on the processing

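The window held 1 peak under all 6 alternatives tried: a score of at least 100, the upper 50% of the list by score, at least 50% of the peak inside the window, a narrower and a wider window around the same centre, and peaks within 10 kb counted as 1 region. The peak has a high score, lies near the middle of the window and has no close neighbour. None of these alternatives could therefore have changed the count, and they were no test of it. The rank of the peak was 4 by score, by fold, by tags per kb and by score on autosomes only. It was 11 by tags and 33 by length. The distance to the next peak was 77.6 kb with all neighbours and with those of a score of at least 100. With the seed taken as bases 2 to 7, the number of listed mature microRNAs sharing that of miR-294-3p moved from 5 to 8. The shorter seed admits miR-290a-3p, miR-291b-3p and miR-350-5p. No paired analysis was possible because each of the ChIP and input groups held a single library. Tag counts limit the precision to counting error, and total depth is unknown, so a stretch of the window without a listed peak cannot be read as unbound.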
